A study of Mus musculus with 8 samples.

Results

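Mpo, Elane, Prtn3, Ctsg and Ms4a3 are 5 of the 27710 genes listed in each of 8 count files, and they were taken by symbol as genes of the azurophil (primary) granule and of the promyelocyte. RNA came from mouse lineage-depleted bone marrow, that is, stem and progenitor cells left when mature blood cells are removed, cultured with cytokines that included SCF, Flt3L and IL3. The 4 groups were wild-type (WT) cells fed 4-thiouridine (s4U, a uridine analogue that marks newly made RNA) at 100 µM for 2 h (3 libraries), Vav-iCre+; Alkbh5fl/fl cells fed in the same way (3 libraries), and 1 library of each genotype labelled as having received no agent. Vav-iCre is a recombinase expressed in blood cells, so Alkbh5, whose product removes the methyl group of N6-methyladenosine in RNA, is deleted in the blood lineage. The labels name no animals, ages or strain background, and p-values measure the spread between these libraries, which may be technical in part. All 8 RNA samples went through TimeLapse chemistry, and the counts hold all RNA of a gene, old and new together.

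Primary granules are the first granules that a developing neutrophil makes, at the promyelocyte stage, and the genes for their proteins are silenced again before the cell matures. Mpo encodes myeloperoxidase, a haem enzyme that makes hypochlorous acid. Elane, Prtn3 and Ctsg encode neutrophil elastase, proteinase 3 and cathepsin G, serine proteases stored in active form in the same granule. Ms4a3 encodes a membrane protein of granulocyte-monocyte progenitors and is not a granule protein. Transcription factors known to drive this program in myeloid progenitors include C/EBP family members, PU.1, RUNX1 and MYB.

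The genes lie at 4 places in the genome (GENCODE M21, GRCm38), all as protein-coding genes. Mpo (ENSMUSG00000009350.13) spans chr11:87793581-87804413 on the plus strand, 27.2 Mb beyond Alkbh5 on the same chromosome. Prtn3 (ENSMUSG00000057729.12, chr10:79874476-79883174) and Elane (ENSMUSG00000020125.7, chr10:79886247-79888215) are neighbours on the plus strand, 3073 bases apart. Ctsg (ENSMUSG00000040314.2, chr14:56099881-56102574) and Ms4a3 (ENSMUSG00000024681.11, chr19:11629496-11640851) are on the minus strand. The antisense gene Gm11505 lies inside Mpo and had 15 to 42 counts per library, against 23279 to 53765 for Mpo. The files count reads that fall in several genes under entries of their own, and 0 of these entries name a member. Among entries that name a pair of genes, 434 pair genes of the same strand and 1 pairs genes of opposite strands.

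The sequence just before the start of each gene is shown as a description, and whether it bears on the levels of these genes was not tested. Each stretch is part of the 250 bases before the RefSeq start (GRCm38.p6) and ends before the first GENCODE exon of the gene in that window. The Prtn3 stretch lies inside the span of longer GENCODE transcripts of that gene. All 5 members had an entry. It is written 5′ to 3′ on the strand of the gene, and capitals mark GAGGAAGT, a sequence of the kind bound by PU.1.
Mpo, chr11:87793534-87793580, plus strand: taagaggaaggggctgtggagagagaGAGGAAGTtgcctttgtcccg
Elane, chr10:79886062-79886246, plus strand: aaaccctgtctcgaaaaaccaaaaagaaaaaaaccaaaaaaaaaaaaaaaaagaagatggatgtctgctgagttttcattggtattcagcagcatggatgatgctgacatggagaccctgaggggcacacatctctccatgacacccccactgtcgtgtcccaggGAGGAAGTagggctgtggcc
Prtn3, chr10:79879417-79879613, plus strand: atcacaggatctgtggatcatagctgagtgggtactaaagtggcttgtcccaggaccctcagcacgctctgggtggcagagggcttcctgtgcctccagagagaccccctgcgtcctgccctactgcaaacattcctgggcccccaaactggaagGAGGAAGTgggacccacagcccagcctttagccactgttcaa
Ctsg, chr14:56102575-56102824, minus strand: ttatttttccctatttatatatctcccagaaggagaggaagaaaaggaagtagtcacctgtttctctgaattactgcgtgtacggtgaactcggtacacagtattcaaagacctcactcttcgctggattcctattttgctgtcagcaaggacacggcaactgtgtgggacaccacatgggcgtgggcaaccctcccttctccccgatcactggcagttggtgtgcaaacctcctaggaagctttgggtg
Ms4a3, chr19:11640852-11641101, minus strand: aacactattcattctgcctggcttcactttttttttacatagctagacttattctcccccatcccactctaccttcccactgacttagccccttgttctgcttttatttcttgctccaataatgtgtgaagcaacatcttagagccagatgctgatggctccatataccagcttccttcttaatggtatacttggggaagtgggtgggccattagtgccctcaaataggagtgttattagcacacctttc

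The capitals occur in Mpo, Elane and Prtn3, where they lie 224 to 217, 85 to 78 and 95 to 88 bases before the RefSeq start. GAGGAAGT on either strand was present in 2.44% of 32851 RefSeq windows of the same length, and it was picked after these sequences had been seen. The PU.1 motif AGAGGAAG was in 2 of the 5 windows, those of Mpo and Ctsg, and in 3.67% of all windows. In Mpo one copy overlaps the capitals. The RUNX motif TGTGGT was in the Ctsg window alone among the members (14.0% of all windows). The MYB motif AACTG was in the windows of Mpo, Prtn3 and Ctsg (39.1% of all windows). The C/EBP motif TTGCNNAA was in 0 of the 5 windows and in 9.56% of all. The TATA motif TATAAG, like GAGGAAGT not among the planned motifs, was in 2 of the 5 windows, those of Elane and Prtn3. It was in 6.65% of all windows. All motifs were searched on both strands, and these matches describe letters in a window, not binding.

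Gene counts per library ranged from 5723245 to 8615997. Alkbh5 had 1061 to 1479 counts in the 4 WT libraries and 0 or 1 in each Alkbh5-deficient library. Both fed libraries with replicate number 1 stood apart from the other 6 in reads outside genes and in several marker sums. Reads in no gene made up 38.3% (WT) and 37.6% (Alkbh5-deficient) of their counts, against 48.9% to 52.1% elsewhere. The 9 markers of stroma and endothelium summed to 109 CPM (counts scaled to library size by TMM) in each of the number 1 libraries and to 394 to 2004 CPM in the others. Those others were not uniform, since the 2004 CPM of WT fed library 3 was far above the next highest sum, 726 CPM. Col1a1, a collagen gene, was at 2.48 and 1.96 CPM in the number 1 libraries. The 9 macrophage markers summed to 81.6 and 106 CPM against 336 to 573 CPM, and the 9 B cell markers to 55.0 and 24.7 CPM against 129 to 249.5 CPM. The 11 stem and progenitor markers, such as Kit, Cd34 and Myb, were detected in every library and summed to 786 to 1027 CPM. The unlabelled libraries both held the female-specific Xist RNA (9147 and 8770 counts) and the Y-linked Ddx3y (299 and 511 counts), whereas each fed library had 1 of these and at most 2 counts of the other. The fed libraries numbered 2 held Xist (17471 counts in WT, 13896 in Alkbh5-deficient cells) and 0 counts of Ddx3y. Those numbered 1 and 3 held Ddx3y (200 to 552 counts), so the sex read from these genes followed the number in both genotypes. In bulk RNA, fewer cells of a type and less RNA per cell cannot be told apart.

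The 5 members together took 0.420% of gene counts in the unlabelled WT library (95% Wilson interval 0.415% to 0.425%) and 0.507% in the unlabelled Alkbh5-deficient library (0.502% to 0.512%). In fed libraries 1 to 3 the share was 0.954%, 0.543% and 0.642% for WT and 0.945%, 0.658% and 0.693% for Alkbh5-deficient cells. The intervals cover counting error only. The range over the libraries, from 0.420% to 0.954%, was far wider than any interval. Both number 1 libraries had overlapping intervals, 0.946% to 0.962% for WT and 0.938% to 0.952% for Alkbh5-deficient cells.

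Mpo had the highest level of the group in every library. It was at 3005 CPM in the unlabelled WT library and at 7808, 3973 and 5244 CPM in WT fed libraries 1 to 3. In Alkbh5-deficient cells it was at 3739 CPM unlabelled and at 8100, 4946.5 and 5141 CPM fed. Both number 1 libraries were the highest, and both unlabelled libraries the lowest.

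Elane was at 403 CPM in the unlabelled WT library and at 979, 605 and 764 CPM in the fed ones. The Alkbh5-deficient values were 506 CPM unlabelled and 964, 683 and 717 CPM fed. Prtn3 was at 268 CPM unlabelled and 663, 424 and 621 CPM fed in WT cells, and at 306 CPM unlabelled and 643, 471 and 439.9 CPM fed in Alkbh5-deficient cells. For both genes the unlabelled libraries were again the lowest and the number 1 libraries the highest. WT fed library 3 was also high in Prtn3, close to the number 1 libraries, and was not so in Elane.

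Ctsg was at 179 CPM unlabelled and 467, 247 and 294 CPM fed in WT cells. In Alkbh5-deficient cells it was at 228 CPM unlabelled and 429, 290 and 305 CPM fed. Its order of libraries was close to that of Mpo.

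Ms4a3 was at 45.6 CPM unlabelled and 78.2, 54.6 and 48.7 CPM fed in WT cells, and at 53.3 CPM unlabelled and 73.4, 59.5 and 57.1 CPM fed in Alkbh5-deficient cells. The number 1 libraries were again highest, but WT fed library 3 lay below the unlabelled Alkbh5-deficient library, so fed and unlabelled values overlapped. The highest library was 1.72 times the lowest, against 2.43 to 2.70 times for the other 4 genes.

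**Figure D1:**
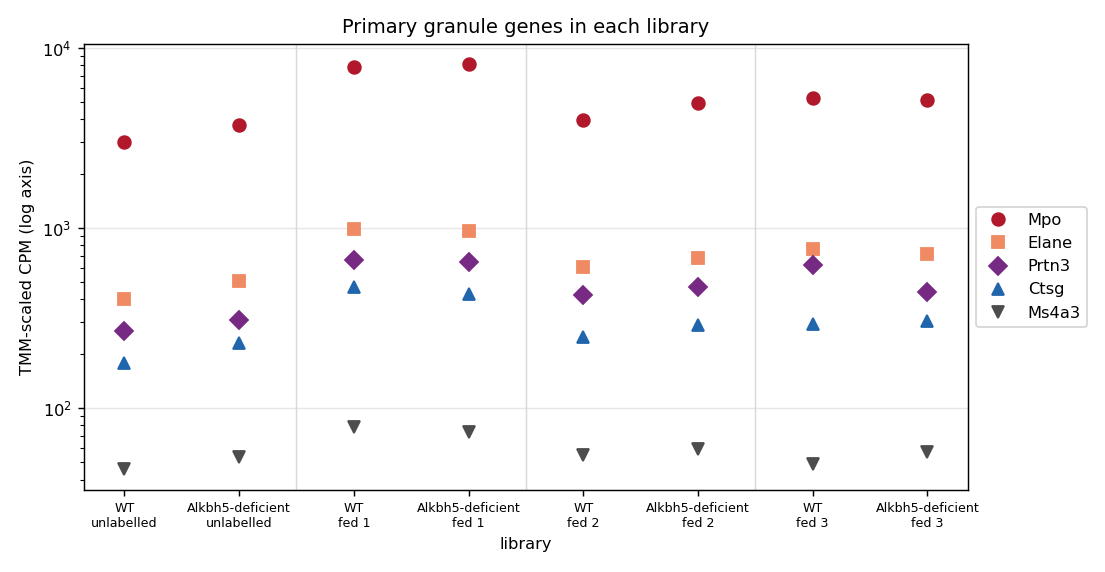
Level of each gene (TMM-scaled CPM, log axis) in each of the 8 libraries, with one point per library and fed libraries set side by side by replicate number. Mpo lies between 3005 and 8100 CPM and Ms4a3 between 45.6 and 78.2 CPM, and all 5 genes are highest in the libraries with number 1.

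Levels of different genes were compared per kilobase of merged exons. Over the 8 libraries Mpo averaged 1532 ± 538 CPM per kilobase, Elane 714 ± 206, Ctsg 295 ± 94.8, Prtn3 277 ± 87.2 and Ms4a3 31.2 ± 6.07 (SD, n = 8). Within each library Mpo exceeded Elane by 1.89 to 2.42 times and Elane exceeded Ctsg by 2.20 to 2.73 times, in 8 of 8 libraries. The order of Ctsg and Prtn3 did not hold beyond their spread, with Ctsg higher in 6 of 8 libraries. It turned when the longest transcript was taken as the length, at 304 CPM per kilobase for Ctsg and 468 for Prtn3. Among 16432 protein-coding genes ranked per kilobase, Mpo was between rank 4 and rank 10 in the 8 libraries, and Elane between 17 and 40. Ctsg ranked 63 to 137, Prtn3 77 to 152 and Ms4a3 1088 to 1741.

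The members varied together. Each gene had its value in both number 1 libraries above those of all other 6, which held for 18% of 14232 tested genes. On the log2 CPM scale, with each gene centred on its own mean, the 5 genes averaged 0.57 and 0.52 in the number 1 libraries of WT and Alkbh5-deficient cells. They averaged -0.66 and -0.38 in the unlabelled libraries. The log2 ratio of Ctsg to Mpo had an SD of 0.07 over the 8 libraries, whereas log2 Mpo itself had an SD of 0.50 and log2 Ctsg of 0.46. The ratios of Elane to Ctsg (SD 0.09) and Elane to Mpo (SD 0.11) were nearly as steady. Elane and Prtn3, the neighbouring genes, had a ratio with an SD of 0.13. Prtn3 was less steady against Mpo (SD 0.20) and Ctsg (SD 0.21). Ratios with Ms4a3 were the least steady, with an SD of 0.24 to 0.36.

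**Figure D2:**
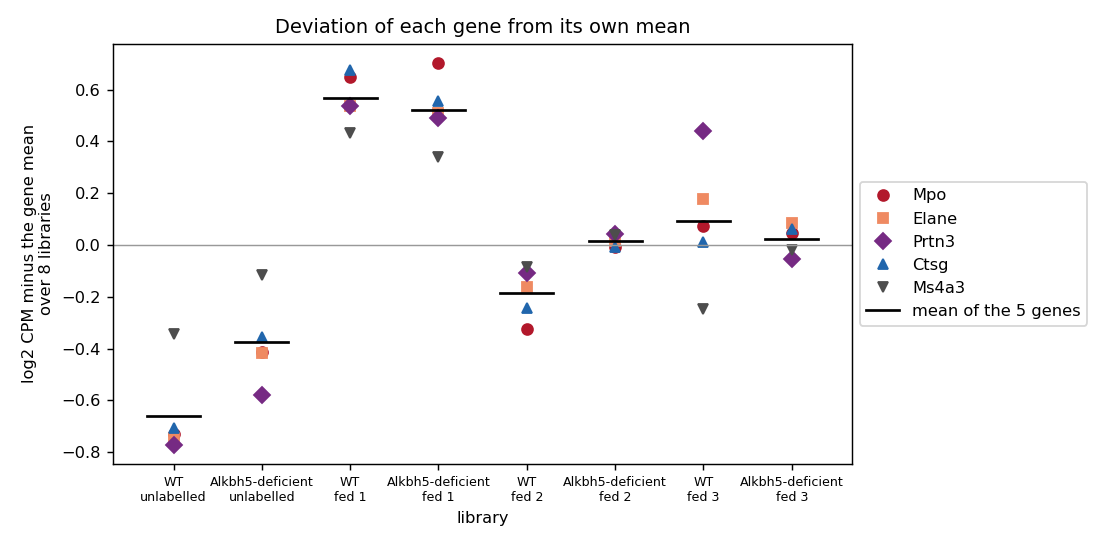
Log2 CPM of each gene minus its own mean over the 8 libraries, with one point per gene and library and a black bar for the mean of the 5 genes. The bars run from -0.66 in the unlabelled WT library to 0.57 in WT fed library 1, and the points of Ms4a3 span less than those of the other genes.

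The genes whose pattern was most like the average of the members were Itm2b, Nucb1, Msn, Gpi1 and Was. Likeness was the root mean square difference of centred log2 CPM over the 8 libraries, which was 0.06 to 0.08 for these 5 genes and had a median of 0.43 and a 5th percentile of 0.19 over 8674 genes with a mean of at least 10 CPM. Predicted genes (Gm followed by digits, names ending in Rik) and the members were left out of this set. The members are part of the average they are compared with, which draws their values down, and they lay at 0.05 (Elane), 0.06 (Ctsg), 0.09 (Mpo), 0.15 (Prtn3) and 0.21 (Ms4a3). Itm2b, a membrane protein gene, was at 465 and 540 CPM in the unlabelled libraries (WT and Alkbh5-deficient) and at 1089 and 1139 CPM in the number 1 fed libraries. Msn encodes moesin, which links membrane to actin, Was an actin regulator of blood cells, and Gpi1 a glycolytic enzyme. None of these 5 genes is specific to granulocytes.

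The genotype comparison asked whether loss of Alkbh5 altered the level of these transcripts in fed cells. None of the 5 members passed the threshold of an adjusted p under 0.05 (edgeR quasi-likelihood test), and 0.0075% of the 13342 genes tested did, which is Alkbh5 alone. No member had an unadjusted p under 0.05 either (1.13% of genes did), and the same was found with DESeq2, which called 2 genes (0.00803%). The mean level of Mpo was 5675 ± 1953 CPM in fed WT cells and 6063 ± 1767 CPM in fed Alkbh5-deficient cells (SD, 3 libraries each), a log2 fold change of 0.08 ± 0.29 (SE). Elane averaged 783 ± 188 and 788 ± 153 CPM, with a log2 fold change of -0.0094 ± 0.22. The log2 fold changes of Ctsg, Ms4a3 and Prtn3 were 0.0051 ± 0.26, 0.05 ± 0.21 and -0.15 ± 0.22. All 5 edgeR adjusted p-values were 1.00, and the smallest unadjusted p was 0.507, for Prtn3. The groups overlapped for each member, whereas 5.59% of the tested genes had groups that did not (2.67% with higher values in Alkbh5-deficient cells). The fit above had no term for the replicate number, so its SE include the spread between numbers. With the number as a block, the values were 0.10 for Mpo, 0.0043 for Elane, -0.14 for Prtn3, 0.04 for Ctsg and 0.07 for Ms4a3. None passed.

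Between same-numbered fed libraries, the median log2 ratio of the members (Alkbh5-deficient over WT) was -0.04, 0.18 and -0.03 for numbers 1, 2 and 3. For Mpo the ratios were 0.05, 0.32 and -0.03. Prtn3 had the widest single difference, -0.50 between libraries numbered 3, where the WT library had 621 CPM and the Alkbh5-deficient library 439.9 CPM. In the same pair Elane, its neighbour, had a ratio of -0.09. WT fed library 3 also had the highest share of the noncoding gene Gm26917 (14.2% of gene counts, against 6.33% to 8.34% in the others) and the highest stromal sum of 2004 CPM. Without both libraries numbered 3 the log2 fold change of Prtn3 was 0.03. The part of these features in the Prtn3 value was not tested.

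Without s4U there was 1 library for each genotype, so the difference has no replicate check. All 5 members had a higher value in the Alkbh5-deficient one. Mpo was at 124% of WT (exact 95% interval 122% to 127%, counting error only), Elane at 126% (120% to 132%) and Ctsg at 128% (119% to 137%). Prtn3 was at 114% (108% to 121%) and Ms4a3 at 117% (102% to 135%). Over 13761 genes with at least 20 counts in the pair, the median was 103% and the 5th and 95th percentiles were 69.0% and 150.0%. A ratio above 1.1-fold, a limit that was not planned, was found in 31.4% of these genes and in 5 of 5 members. All 5 ratios lie between these percentiles.

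The next comparison set the 6 fed libraries against the 2 unlabelled libraries, with genotype as a second term. All 5 log2 fold changes were positive, with a median of 0.81 against 0.03 over all 14232 genes tested, but none of the members passed the threshold in edgeR (0.0281% of genes did). Prtn3 was at 0.93 ± 0.23, Mpo at 0.82 ± 0.29, Elane at 0.81 ± 0.22, Ctsg at 0.76 ± 0.26 and Ms4a3 at 0.34 ± 0.20 (SE, edgeR adjusted p = 0.162, 0.179, 0.162, 0.175 and 0.353). Mpo averaged 5869 CPM in 6 fed and 3372 CPM in 2 unlabelled libraries, and Elane 785 and 454 CPM. In 4 of 5 members, all but Ms4a3, every fed library lay above both unlabelled ones, which held for 14.6% of genes (31.9% in either direction). The same 4 had an unadjusted edgeR p under 0.05 with a higher value, against 9.97% of genes (20.2% in either direction). DESeq2 called 5.43% of 9870 genes, and 2.94% of the 9870 as higher, among them Prtn3 and Elane (adjusted p = 0.0105 and 0.0236). It did not call Mpo, Ctsg or Ms4a3 (adjusted p = 0.0539, 0.0610 and 0.332).

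In each genotype and for each member, the fed library numbered 1 stood highest over the unlabelled library. Mpo was at 2.60, 1.32 and 1.75 times the unlabelled library in WT fed libraries 1 to 3, and at 2.17, 1.32 and 1.37 times in the Alkbh5-deficient ones. Numbers 2 and 3 had no common order. Prtn3 was at 1.58 and 2.32 times in WT fed libraries 2 and 3 and at 1.54 and 1.44 times in the Alkbh5-deficient ones, and Ms4a3 was lowest in the libraries numbered 3, at 1.07 times in both genotypes. Without both number 1 libraries the log2 fold changes were 0.55 for Mpo, 0.64 for Elane, 0.79 for Prtn3, 0.51 for Ctsg and 0.18 for Ms4a3. Since Xist and Ddx3y were both present in each unlabelled library and never both in a fed one, feeding and the source of the cells cannot be told apart here.

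Whether the genotype difference depended on s4U was tested by an interaction term over the 8 libraries. All 5 estimates were negative, from -0.32 for Ctsg to -0.15 for Ms4a3, with SE of 0.42 to 0.59. Without WT fed library 1, Mpo was at 0.090, Ms4a3 at 0.080, Ctsg at -0.0054, Elane at -0.115 and Prtn3 at -0.19, and the median of the members moved from -0.31 to -0.0054. None passed (edgeR adjusted p = 1.00 for each), and 0% of 14988 genes did, with 24 genes at an unadjusted p under 0.05 (0.16%, and 0.0534% with a positive value) and 0 called by DESeq2. The mean of the fed libraries over the unlabelled one was 1.89 for Mpo and 2.12 for Prtn3 in WT cells, and 1.62 and 1.69 in Alkbh5-deficient cells.

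**Figure D3:**
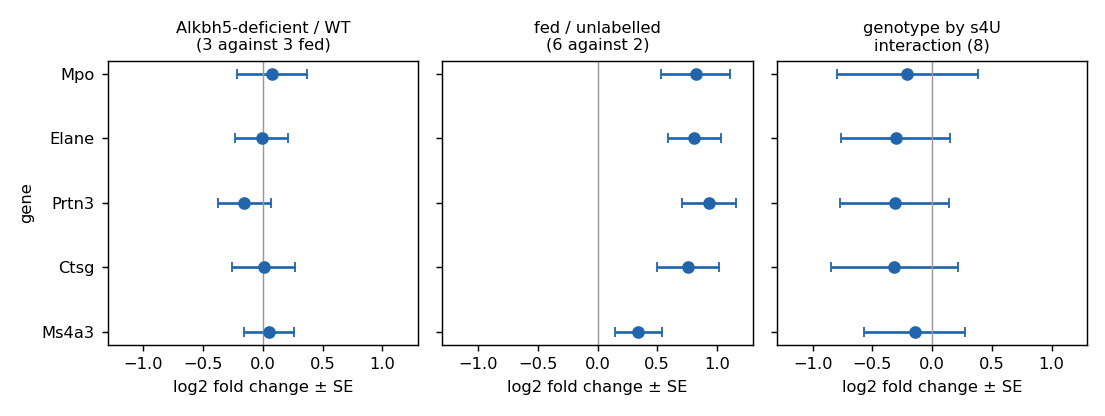
Log2 fold change (point) with its SE (bar) from edgeR for each gene in the genotype, s4U and interaction contrasts, on 1 scale. Genotype estimates lie between -0.15 and 0.08, the s4U estimates between 0.34 and 0.93, and the interaction estimates are negative with wider bars, a sign that Mpo and Ms4a3 lose without WT fed library 1.

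Other stored proteins of primary granules and lysosomes gave s4U values of the same sign. Of 12 listed genes 11 were in the files and all 11 were tested. In the genotype contrast 0 passed and the median log2 fold change was 0.04. In the s4U contrast 0 passed in edgeR, 1 passed in DESeq2, and the median was 0.52 with 11 of 11 positive values. Prss57, which encodes the fourth neutrophil serine protease, was at 0.79 ± 0.24 in the s4U contrast. Lyz2, for lysozyme, averaged 1826 CPM and was at 1.01 ± 0.46, and Ctsb, for cathepsin B, averaged 341 CPM and was at 0.52 ± 0.16. Lyz2 was at 3137 and 3631 CPM in the number 1 libraries and at 1010 to 1730 CPM in the other fed ones. In the unlabelled libraries it was at 1006 and 1074 CPM. The 11 genes summed to 4791 and 5380 CPM in the number 1 libraries. Their sums were 2150 to 2991 CPM in the other fed libraries and 1943 and 2109 CPM in the unlabelled ones.

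Factors that fold, sort, activate and pack the granule enzymes had 11 listed genes. All 11 were tested, 0 passed in either contrast, and the median in the s4U contrast was 0.11, with 7 of 11 positive. Ctsc, the peptidase that activates the serine proteases, was at -0.27 ± 0.50, and Srgn, the proteoglycan that holds them in the granule, at -0.08 ± 0.19. Calr, a chaperone known to bind the myeloperoxidase precursor, averaged 1595 CPM and was at 0.56 ± 0.20. Among 11 inhibitor genes the s4U median was 0.01, with 0 past the threshold in edgeR and 1 called higher by DESeq2. Serpinb1a, an inhibitor of the 3 proteases, was at 0.27 ± 0.20 and Serpina3g at -0.06 ± 0.26. In the genotype contrast these lists had medians of 0.06 and -0.04, with 0 members past the threshold.

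The 16 transcription regulators of granulocyte development had 0 members past the edgeR threshold in either contrast, 1 called higher by DESeq2 with s4U, and a median of 0.04 between genotypes and 0.06 with s4U. Cebpb averaged 548 CPM and was at 0.74 ± 0.21 in the s4U contrast, Cebpa at 0.43 ± 0.26, Cebpe at 0.39 ± 0.21 and Spi1, which encodes PU.1, at 0.40 ± 0.26. Runx1 was at -0.47 ± 0.14, Myb at -0.12 ± 0.15, Gfi1 at 0.03 ± 0.19 and Zeb2 at -0.32 ± 0.15. The 20 genes of granulocyte-monocyte progenitors had a median of 0.0016 between genotypes and 0.33 with s4U, where 16 of 20 values were positive, 0 passed in edgeR and 2 were called higher by DESeq2. The 2 genes with the highest mean levels were not among the positive ones. Csf2rb, a cytokine receptor chain, averaged 516 CPM and was at -0.04 ± 0.24, and Cd24a at -0.14 ± 0.19.

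The 22 late granule and maturation genes are switched on by neutrophils after the primary granule genes. Of these, 19 were tested, 0 passed the threshold in either contrast, and 19 of 19 s4U values were positive. The late genes had medians of -0.16 between genotypes and 0.64 with s4U. Their summed level was 5411 and 3995 CPM in the number 1 fed libraries of WT and Alkbh5-deficient cells. It was 1173 to 2691 CPM in the other fed libraries, a range that held both unlabelled sums, 1999 and 2015 CPM. The lowest sum was that of WT fed library 3, where the 5 members summed to 6972 CPM, above the other fed libraries except those numbered 1. Ngp, a secondary granule gene, was at 214 CPM there and at 356 to 1009 CPM in the other 7 libraries. S100a9 averaged 427 CPM. The 10 monocyte markers also had their highest sums in the number 1 libraries, 6776 and 7292 CPM, against 1780 to 3502 CPM. Their parts in the levels of the members were not tested.

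**Figure D4:**
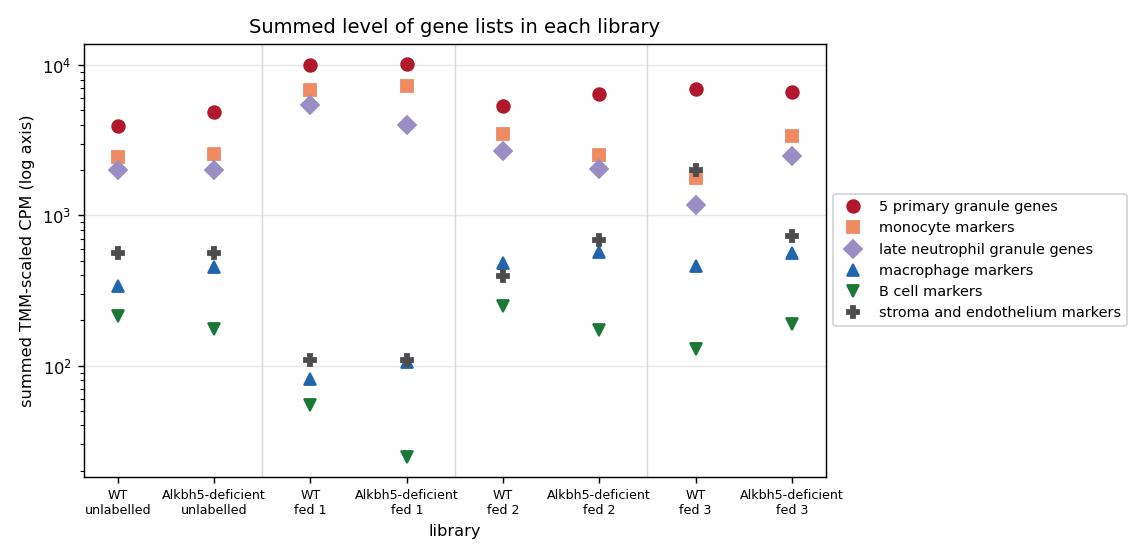
Summed TMM-scaled CPM (log axis) of the 5 genes and of 5 other lists in each library. In both libraries numbered 1 the primary granule, monocyte and late granule sums are highest and the macrophage, B cell and stromal sums lowest.

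The genes on either side of the members were counted as well. Mcpt8, a basophil protease gene 14608 bases from Ctsg, was at 326 CPM in WT fed library 1 and 114 CPM in Alkbh5-deficient fed library 1, where Ctsg was at 467 and 429 CPM. Gzmd, on the other side of Ctsg, had at most 1 count per library. Tspoap1, 7653 bases before Mpo, was at 55.4 and 66.9 CPM in the number 1 libraries and at 132 CPM in WT fed library 3. Ms4a2, a mast cell and basophil receptor chain gene 5777 bases from Ms4a3, was at 53.1 and 30.0 CPM in the number 1 libraries and 10.4 CPM in WT fed library 3. Oosp2, on the other side of Ms4a3, had at most 2 counts per library.

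Relatives of the members by gene family were listed too. Of 14 other Ms4a genes in the files 10 were tested, with 0 past the threshold and medians of 0.30 between genotypes and 0.16 with s4U. Ms4a6c averaged 95.8 CPM and Ms4a6b 23.9 CPM. Among 4 other haem peroxidase genes 3 were tested and 0 passed. Epx, the eosinophil peroxidase gene, averaged 94.1 CPM and was at -0.56 ± 0.23 between genotypes, against 0.08 ± 0.29 for Mpo. Of 14 related serine protease genes 5 were tested, with 0 past the edgeR threshold in either contrast and 1 called higher by DESeq2 with s4U. Prss34 and Gzmb averaged 373 and 165 CPM, with genotype values of -0.81 ± 0.31 and -0.16 ± 0.60. The 13 markers of mast cells, basophils and eosinophils, of which 9 were tested between genotypes, had 9 of 9 negative values and a median of -0.49, with 0 past the threshold. Epx and Prss34 are part of this list too. The median over all 13342 genes tested was 0.0011. Other lists were also one-sided, such as stroma and endothelium (7 of 7 negative, median -0.81) and monocyte markers (9 of 10 positive, median 0.31). The mast cell, basophil and eosinophil markers summed to 868 to 1875 CPM over the WT fed libraries and to 862 to 950.4 CPM over the fed libraries without Alkbh5. The difference between these values and those of the members was not tested. No gene of the 19 lists passed the edgeR threshold in any of the 3 contrasts.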

How the data were processed

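The authors deposited raw, whole-number read counts per gene for each library. The submitters' processing notes name HTSeq, STAR, HISAT2, DESeq2, Picard and cutadapt, and the builds GRCm38 and mm10. Roles, versions and the strand setting used for counting are not given there. The kit is stranded, per the labels' protocols. Entries that name no gene (928) stayed out of totals and tests. Of 27710 genes, 27009 matched GENCODE M21 by symbol.

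The test was edgeR 4.0.16's robust quasi-likelihood F test under R 4.3.3, after TMM scaling and filterByExpr with its defaults, with Benjamini-Hochberg adjustment over all genes tested. All 5 members passed the filter. The genotype contrast used the 6 fed libraries, and the s4U contrast and the interaction all 8. An SE is the log2 fold change divided by the root of F. CPM were TMM-scaled over 8 libraries, and log2 CPM used a prior count of 2. Groups and replicate numbers come from the labels, and every pair of libraries differed by more than counting noise (chi-square per gene at least 2.93). Same-numbered fed libraries deviated together from their group means (r across genes = 0.68, 0.29 and 0.19). The main genotype fit nevertheless had no term for the number. It entered as a block in alternative fits and paired the libraries in the same-numbered ratios. However, numbers 2 and 3 correlated more with each other (0.35 both ways) than with their own number, so these values set apart a pair for number 1 only. In Xist and Ddx3y, number 2 also stood apart from numbers 1 and 3 in both genotypes. The scripts were tested on simulated data. Alternatives included DESeq2 1.42.0 and limma 3.58.1.

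The members and lists were chosen with earlier results of these data known. A rule picked genes to name. It took the members, their chromosomal neighbours and the 5 most alike in pattern. From each of 19 lists it took those past the threshold or the 2 with the highest mean. Not all genes so picked are named here. Values of the megakaryocyte, erythroid, T and NK cell and dendritic cell lists are not given. Others named beside these (Prss57, Ctsc, Srgn, Cebpa, Cebpe, Spi1, Runx1, Myb, Gfi1) were chosen for their known role after their values were seen.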

Additional observations from a re-analysis of the deposited data

How the results depend on the processing

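The members were called in no contrast under any alternative except DESeq2, which called 2 of them in the s4U contrast. The s4U log2 fold changes kept their positive sign in all 16 alternatives of each member, from 0.18 for Ms4a3 to 1.09 for Prtn3. The number of genes called between genotypes was 1, and it was 2 without a low-count filter, 2 with DESeq2 and 9 with voom weights and the replicate block. The number called in the s4U contrast was 4; it was 37 without the filter (16 higher, 21 lower), 536 with DESeq2 (290 higher, 246 lower), 0 to 2 with 1 library left out (2 without WT fed 2, 1 without Alkbh5-deficient fed 1, 0 without any of the other 6), and 1, 1 and 0 without both fed libraries numbered 1, 2 and 3, alternatives chosen after seeing the data. The cause was not tested.

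Signs of the genotype values were not stable. With 1 library left out, Mpo ranged from -0.18 to 0.37, Elane from -0.17 to 0.18, Ctsg from -0.18 to 0.32 and Ms4a3 from -0.067 to 0.27, and in the interaction Mpo from -0.47 to 0.090 and Ms4a3 from -0.26 to 0.080. Elane turned to 0.0024 with DESeq2, 0.0043 with the replicate block and 0.070 with all 8 libraries. With voom weights and the block Ctsg turned to -0.050 and Ms4a3 to -0.037. Without both libraries numbered 1, Elane was at 0.022. Without those numbered 2, Mpo was at -0.00068 and Ctsg at -0.071. Without those numbered 3, Elane was at 0.048, Prtn3 at 0.029 and Ms4a3 at -0.0039. The replicate block changed no other sign and no call.

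Per kilobase of the longest transcript, Prtn3 averaged 468 and Ms4a3 39.1 CPM. On plain gene totals Mpo in the unlabelled pair was at 121% of WT. The interaction with a replicate block, and without an unlabelled library, was not run because the unlabelled libraries have no number and are 1 per genotype. The members had at least 257 counts in every library, and the s4U contrast has 2 unlabelled libraries.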
